A study of Mus musculus with 8 samples.

Results

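The acyltransferases examined here were the Agpat family (Agpat1 to Agpat5), the Lpcat family (Lpcat1 to Lpcat4) and Gpam, 10 of the 22911 genes that had a probe on the array. Their 18 probes were found through the RefSeq accession that the array files give for each probe, and every probe was kept apart. The family was chosen by the measured signal of Agpat5 and Lpcat2, which was already known to be lower on the arrays labelled Mrp4-null, and the question was whether a paralog rose where they fell. For these 2 genes the difference between the genotypes is therefore a description without a test. The other 8 genes are called paralogs below for short, although Lpcat3 encodes an enzyme of another protein family. Their differences were tested.

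RNA from the retinas of aged mice was measured on 8 one-color arrays, with 4 samples of homozygous Mrp4 knockout mice and 4 samples of wild-type mice. No treatment was given in the labels, which state an age of 46 to 55 weeks for both groups. The knockout line had a C57BL/6J background. The methods describe retinas of 3 mice, without saying whether each sample pooled 3 animals, so the p-values measure the spread between samples, which may in part be technical. Whole retina was used, in which fewer cells of a type and less RNA per cell cannot be told apart.

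Glycerophospholipids are built by adding fatty acids to a glycerol backbone in steps. Gpam encodes a mitochondrial glycerol-3-phosphate acyltransferase, which adds the first fatty acid and gives lysophosphatidic acid (LPA). The AGPAT enzymes add the next one and turn LPA into phosphatidic acid, from which the other phospholipids and triacylglycerol are made. The LPCAT enzymes work in the remodeling cycle, in which a phospholipase removes a fatty acid and an acyltransferase puts another in its place. In the retina this exchange is of interest because the membranes of photoreceptor outer segments are rich in polyunsaturated fatty acids.

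Lpcat1 and Lpcat2 share an activity, since both enzymes can also make platelet-activating factor (PAF) from its lyso form. They are shown by their promoters as the pair in which one gene was chosen for its lower signal on the arrays labelled Mrp4-null and the other was not. The sequences are of RefSeq, build GRCm38.p6, plus strand, from 250 bases before to 50 bases after the start of the gene. Capitals mark 4 motifs, searched on either strand. These were the GC box with the letters GGGCGG, the CCAAT box named by its own letters, the promoter element TATAAA, and the core motif of the photoreceptor factor CRX, spelled TAATCC.
Lpcat2, chr8:92855083-92855382: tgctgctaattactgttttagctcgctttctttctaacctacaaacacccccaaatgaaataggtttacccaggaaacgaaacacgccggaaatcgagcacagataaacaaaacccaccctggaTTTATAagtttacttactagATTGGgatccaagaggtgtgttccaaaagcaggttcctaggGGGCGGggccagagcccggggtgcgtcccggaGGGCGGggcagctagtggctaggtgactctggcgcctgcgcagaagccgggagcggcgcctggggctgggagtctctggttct
Lpcat1, chr13:73466981-73467280: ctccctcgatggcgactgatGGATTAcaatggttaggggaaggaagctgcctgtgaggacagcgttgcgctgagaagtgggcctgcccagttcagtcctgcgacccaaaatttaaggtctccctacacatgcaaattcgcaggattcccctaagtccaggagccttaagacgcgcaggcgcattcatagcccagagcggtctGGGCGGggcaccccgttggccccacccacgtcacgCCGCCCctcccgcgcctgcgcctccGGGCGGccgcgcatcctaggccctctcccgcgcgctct
The Lpcat2 promoter held 2 GC boxes, 1 CCAAT box and 1 TATAAA element, and the Lpcat1 promoter held 3 GC boxes and 1 CRX core. None of these matches overlapped another, while in the promoters of Agpat2 and Lpcat3 a pair of GC boxes shared a base. Of all 32851 promoters of this length, 35.7% held a GC box, 37.4% a CCAAT box, 13.6% a TATAAA element and 7.06% a CRX core. Promoters were matched for 9 of the 10 genes, all but Agpat5, with 11 promoters in all. A GC box was found in 8 of the 11, a CCAAT box in 5, a TATAAA element in 1 and a CRX core in 1. The E-box CACGTG, which 7.15% of all promoters held, was found in 0 of the 11, and the core motif of the myeloid factor PU.1 (AGGAAGT), which 9.35% held, was found in 2, those of Agpat4 and Agpat1. These matches describe the letters of each window and nothing about binding.

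Before the results, the arrays were checked against their labels. Abcc4, the gene for MRP4, was at a normalized log2 signal (log2 of the processed signal after quantile normalization between arrays) of 10.84, 10.71, 10.64 and 10.80 under the Mrp4-null label and at 6.62, 7.13, 6.54 and 7.02 on the wild-type arrays. The targeted gene thus had more signal under the knockout label, and the directions below follow the labels as deposited. Xist passed the scanner software's test for a signal well above background in all 4 samples labelled Mrp4-null and in wild-type samples 1 and 2. Y-linked probes passed it in wild-type samples 2, 3 and 4 and in 0 samples labelled Mrp4-null. By these signals the sexes were unevenly spread over the genotypes, so sex and genotype cannot be fully told apart below. Wild-type sample 2 had both signals, and whether it pooled animals of both sexes was not tested. Each genotype lay in a row of its own on the slide, so the row and the genotype cannot be told apart. The 75th percentile of the processed signal was between 497 and 786. The lowest values were 497 for Mrp4-null sample 2 and 514 for wild-type sample 3. Every listed marker gene of Muller glia, ganglion cells, rods, cones, bipolar, amacrine and horizontal cells had a retained probe, and the mean level of the 5 rod genes was between 16.32 and 16.47 on the log2 scale. The mean level of the 8 genes listed as lens markers was 6.24 to 9.17 under the Mrp4-null label. On the wild-type arrays it was 7.82 to 10.45 (exact permutation test, two-sided, p = 0.143, adjusted p = 0.371 over 13 marker lists). All 12 retained lens probes had a negative log2 difference, from -2.44 to -1.12. Limma called 0 of the 8 lens genes, with 5 probes at an unadjusted p under 0.05, and the local pooled error (LPE) test of the methods, which takes the error of a probe from probes of similar signal, called 8. The 4 bipolar cell genes were at 13.70 to 13.82 and 13.52 to 13.65 (exact permutation test, two-sided, p = 0.0286, the smallest this design allows, adjusted p = 0.186). The part of lens or bipolar cells in the differences below was not tested.

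Of the 18 probes, 17 were retained, that is, well above background on every array of at least 1 genotype. To be called changed, a probe needed a 1.5-fold difference or more together with a Benjamini-Hochberg adjusted p under 0.05 from limma, over all 37085 retained probes of the array. Over all retained probes 0.545% met this rule, with 0.256% higher and 0.289% lower. The 4 probes of Agpat5 and Lpcat2 met it as well, all lower, which only describes how they were selected on this contrast, and nothing is read from their count. Of the 13 retained paralog probes, 0 were called in either direction, 0 had an unadjusted p under 0.05 in limma, where 6.46% of all retained probes did, and 0 were called by the LPE test, which called 0.626% of all probes.

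**Figure D1:**
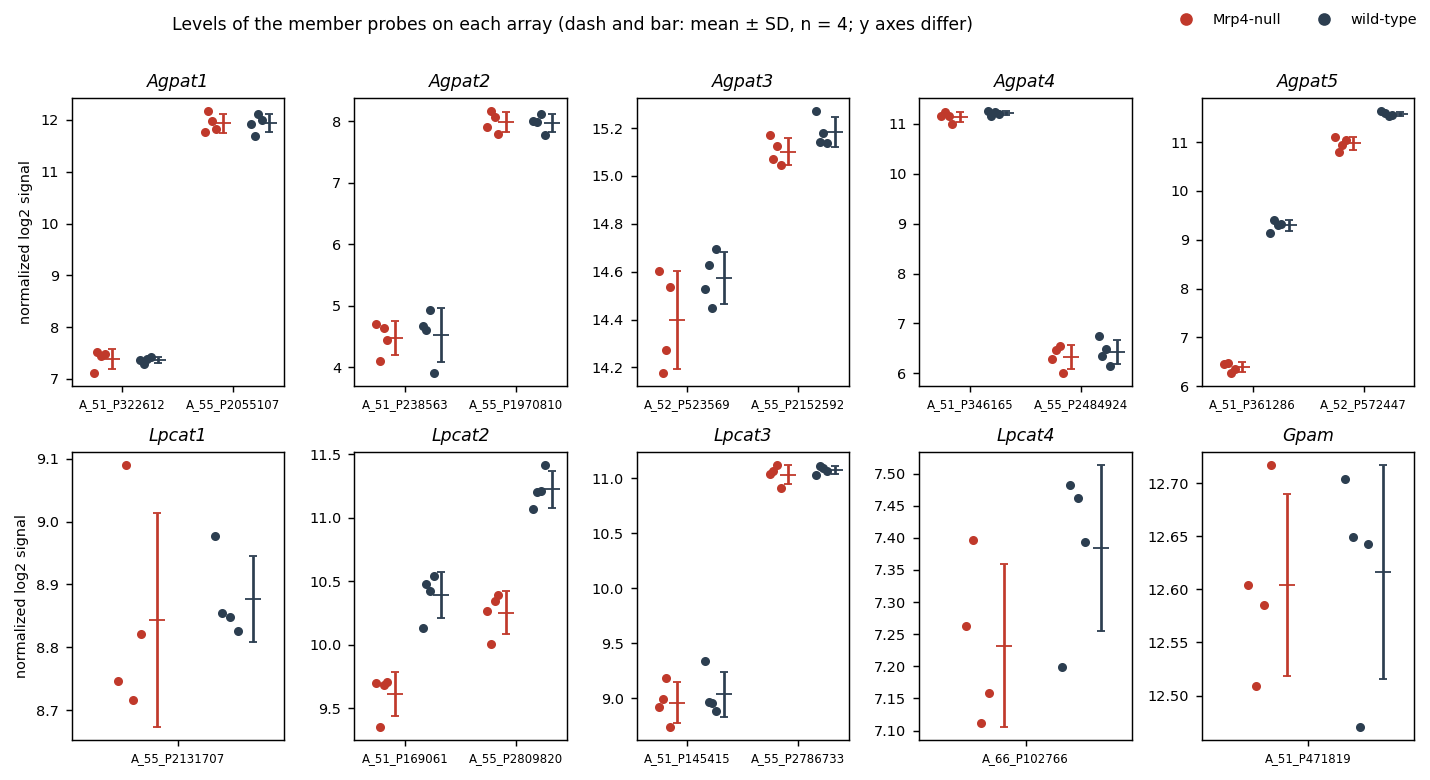
Normalized log2 signal of the 17 retained member probes on each of the 8 arrays, with a panel for each gene and a y axis of its own for each panel. Points are arrays, and the dash with its bar is the mean ± SD of 4 arrays. Both probes of Agpat5 and of Lpcat2 are parted by genotype, while the points of the genotypes overlap in every other panel.

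Agpat5, an LPA acyltransferase found at mitochondria, was lower by both of its probes, by very different amounts. Probe A_51_P361286 was at 6.45, 6.48, 6.26 and 6.34 in the samples labelled Mrp4-null and at 9.13, 9.40, 9.31 and 9.33 on the wild-type arrays, in normalized log2 signal. As processed signal before normalization, this was 99.2, 75.8, 90.0 and 86.2 against 606, 817, 501 and 556. Every array labelled Mrp4-null lay below every wild-type array, with 2.65 between the nearest arrays on the log2 scale. The means were 6.39 ± 0.10 (SD, n = 4) and 9.29 ± 0.11 (SD, n = 4), a log2 difference of -2.91 (standard error 0.09), or a 7.50-fold lower signal. With normexp background correction the log2 difference was -2.23.

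Probe A_52_P572447 of Agpat5 showed a smaller difference. It was at 11.10, 10.79, 10.95 and 11.05 in the samples labelled Mrp4-null and at 11.63, 11.59, 11.53 and 11.56 on the wild-type arrays. The genotypes did not overlap here either, with 0.43 between the nearest arrays, but the log2 difference was -0.61 (standard error 0.09), a 1.53-fold lower signal. This probe lay just inside the fold threshold, and the paralog probe nearest to it on the other side, Agpat3 A_52_P523569, was 1.13-fold lower. The description of this probe as past the rule was lost with the LPE test, with normexp background correction, with a term for the sample number or for Y-linked signal, without the 2 arrays of lowest signal, and in 7 of 8 fits that left out 1 array, and it held in 9 of 21 alternatives. Both Agpat5 probes carry the same accession, NM_026792, so the files do not say which part of the transcript each one reads.

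A further probe bears on Agpat5. A_66_P102259, with the accession ENSMUST00000149565, matched no gene in the table used for names and is not a member, but a probe whose ID begins with the same characters is listed for Agpat5 in the supplement of the study, where the ID is cut short. Its normalized log2 signal was 8.11, 7.41, 8.02 and 7.73 under the Mrp4-null label, against 6.44, 6.36, 6.35 and 6.43 for wild-type. It was higher on every array labelled Mrp4-null, by 1.42 (standard error 0.15), which is opposite to both accession-matched probes. Its levels on the wild-type arrays spread by an SD of 0.05 and on the arrays labelled Mrp4-null by 0.32. Read with this probe, the 3 probes linked to Agpat5 gave log2 differences of -2.91, -0.61 and 1.42, and the files do not show which transcripts each one reads.

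The other Agpat genes encode further LPA acyltransferases, and Agpat2 is known for a lipodystrophy caused by its loss in people. By A_51_P322612, Agpat1 was at 7.11, 7.51, 7.43 and 7.48 in the samples labelled Mrp4-null and at 7.37, 7.29, 7.38 and 7.42 on the wild-type arrays. The wild-type arrays lay within the range of the others, and the log2 difference was 0.02 (95% interval -0.22 to 0.25, adjusted p = 1.00 from limma). The other Agpat1 probe, A_55_P2055107, had an interval of -0.28 to 0.28. Agpat2 was at 7.91, 8.17, 8.08 and 7.80 against 8.00, 7.98, 8.12 and 7.78 by A_55_P1970810, a log2 difference of 0.01 (-0.24 to 0.27). Its dim probe A_51_P238563 was well above background on 4 arrays labelled Mrp4-null and 3 wild-type arrays, and gave -0.05 with the widest interval of the family, -0.57 to 0.46.

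Agpat3 encodes an enzyme that prefers polyunsaturated fatty acids, docosahexaenoic acid among them. A_55_P2152592 was at 15.17, 15.07, 15.12 and 15.04 in the samples labelled Mrp4-null and at 15.27, 15.14, 15.18 and 15.14 on the wild-type arrays. Of the arrays labelled Mrp4-null, the last 3 named were below all the wild-type arrays and the first was not, and the log2 difference was -0.08 (95% interval -0.25 to 0.08, adjusted p = 1.00 from limma). A_52_P523569 gave -0.18 (-0.44 to 0.09), the largest fitted difference among the paralog probes. Agpat4 was at 11.15, 11.24, 11.15 and 10.998 against 11.25, 11.16, 11.23 and 11.20 by A_51_P346165, a log2 difference of -0.08 (-0.26 to 0.10). Its probe A_55_P2484924 gave -0.10 (-0.46 to 0.26). Of the 8 probes of Agpat1 to Agpat4, 3 had a positive and 5 a negative difference, and the arrays of the genotypes overlapped in all 8.

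Lpcat2 encodes the inducible enzyme of PAF synthesis, known from macrophages. Probe A_55_P2809820 was at 10.26, 10.01, 10.35 and 10.39 in the samples labelled Mrp4-null and at 11.06, 11.20, 11.21 and 11.42 on the wild-type arrays. Probe A_51_P169061 was at 9.70, 9.35, 9.69 and 9.71 against 10.13, 10.48, 10.42 and 10.54. Neither probe overlapped between the genotypes, and on both the second array labelled Mrp4-null was the lowest of all and the first wild-type array the lowest of its group. The log2 differences were -0.97 (standard error 0.11) and -0.78 (standard error 0.12), or 1.96-fold and 1.72-fold lower signals. The description of A_51_P169061 as past the rule held in 11 of 21 alternatives and in 2 of 8 fits that left out 1 array. For A_55_P2809820 it held in 19 of 21 alternatives. The first wild-type array was also the only wild-type array without signal of Y-linked genes. With the detection of Y-linked probes as a term in the fit, a comparison that then rests on this array alone for wild-type, the log2 differences were -0.81 and -0.52 and neither Lpcat2 probe was called. In the same fit Agpat5 was at -2.75 and -0.66, and only the first of these was called.

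Markers of microglia and macrophages were set beside Lpcat2. All 10 listed genes had a retained probe, and the level averaged over them came to 8.54, 8.50, 9.15 and 8.40 under the Mrp4-null label, against 8.55, 8.54, 8.56 and 8.47 for wild-type. Apart from the third array labelled Mrp4-null, which was higher, the arrays lay close together, and the list differed by 0.11 between the genotypes (exact permutation test, two-sided, p = 0.857, adjusted p = 0.943 over 13 lists). Over the 13 retained probes of the list the log2 differences ran from -0.16 to 0.61, with a median of 0.03. Cx3cr1, P2ry12, Tmem119 and Fcrls lay between -0.16 and -0.10, Csf1r had 0.03 and 0.17, and Itgam, C1qa and Aif1 had 0.25, 0.29 and 0.34. The third array labelled Mrp4-null, with the highest microglial level, had Lpcat2 at 10.35 and 9.69, within the range of its group. Cd68, a lysosomal protein of macrophages, had 0.56 and 0.61, with adjusted p = 0.942 and 1.00 from limma, and no gene of this list was called changed. Whether microglia had a part in the Lpcat2 difference was not tested.

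**Figure D2:**
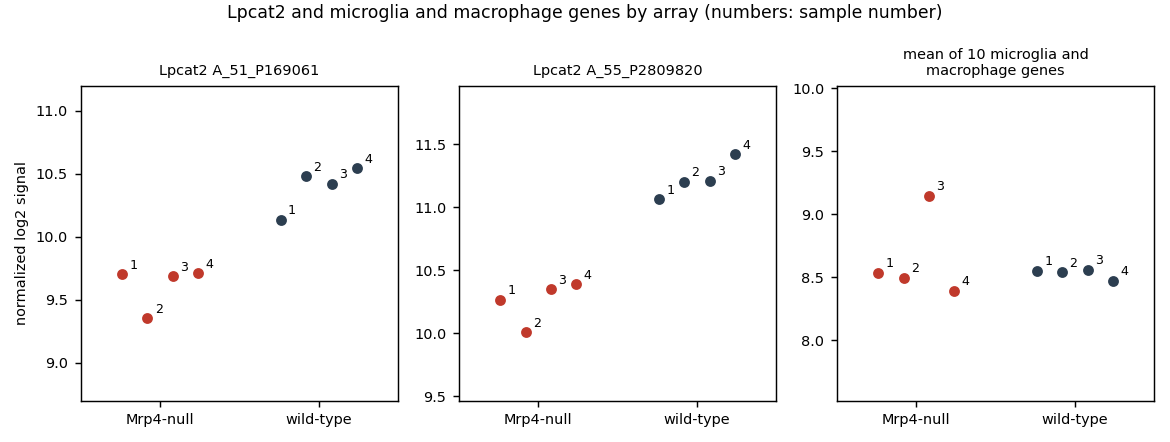
Normalized log2 signal of the 2 Lpcat2 probes and the mean level of 10 microglia and macrophage genes on each array, numbered by sample, with all 3 axes spanning the same range. Lpcat2 is lower on all 4 arrays labelled Mrp4-null, while the marker genes lie between 8.40 and 8.56 on 7 arrays and at 9.15 on the third array labelled Mrp4-null.

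Lpcat1, a lysophosphatidylcholine acyltransferase whose mutation causes retinal degeneration in mice, was at 8.75, 9.09, 8.72 and 8.82 in the samples labelled Mrp4-null and at 8.98, 8.85, 8.85 and 8.83 on the wild-type arrays. The highest and the lowest level both came from arrays labelled Mrp4-null, and the log2 difference was -0.03 (95% interval -0.26 to 0.19, adjusted p = 1.00 from limma). Lpcat3, an enzyme of another protein family that favors polyunsaturated fatty acids, was at 11.04, 11.07, 11.12 and 10.91 against 11.03, 11.11, 11.09 and 11.07 by A_55_P2786733, a log2 difference of -0.04 (-0.21 to 0.13). Its second probe A_51_P145415 gave -0.08 (-0.38 to 0.22). Lpcat4, which also acts on lysophosphatidylethanolamine, was at 7.26, 7.40, 7.11 and 7.16 against 7.20, 7.48, 7.46 and 7.39, a log2 difference of -0.15 (-0.38 to 0.07). All 4 probes of Lpcat1, Lpcat3 and Lpcat4 had a negative difference and overlapped between the genotypes.

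Gpam stands one step above the AGPAT enzymes. By A_51_P471819 it was at 12.60, 12.51, 12.58 and 12.72 in the samples labelled Mrp4-null and at 12.70, 12.65, 12.47 and 12.64 on the wild-type arrays, with a log2 difference of -0.01 (95% interval -0.20 to 0.18, adjusted p = 1.00 from limma). The other Gpam probe, A_52_P11388, was the member probe that was not retained. It was well above background on 2 arrays labelled Mrp4-null and 3 wild-type arrays, with processed signals of 10.7, 13.2, 20.1 and 16.3 and of 16.9, 20.4, 13.8 and 21.6. The ranges overlapped, and no fold is given for it. Of the adipocyte genes, listed because Gpam and Agpat2 are prominent in fat, Adipoq and Cidec were not well above background on any array. Plin1 was well above background on 2 arrays and was not retained. The list as a whole rested on Fabp4 and Retn, at 8.57 to 8.78 against 9.36 to 9.54, with log2 differences of -0.33 and -0.14 for the 2 Fabp4 probes, neither called by limma, and of -1.11 and -1.29 for the 2 probes of Retn, a gene on chromosome 8, both called. The list differed with an exact permutation p of 0.0286 (two-sided, adjusted p = 0.186 over 13 lists). Whether fat tissue had a part in the Gpam and Agpat2 values was not tested.

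**Figure D3:**
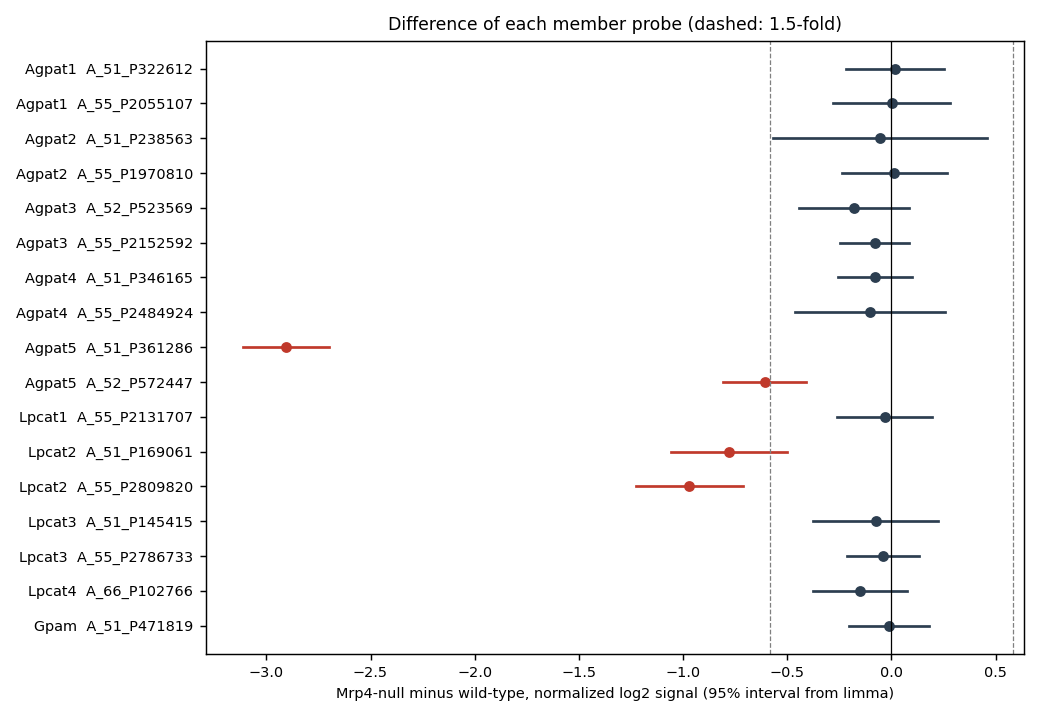
Difference in normalized log2 signal, arrays labelled Mrp4-null minus wild-type, for each of the 17 retained member probes, with the 95% interval from limma as a line and 1.5-fold as dashed lines. The 4 probes of Agpat5 and Lpcat2 (red) lie at -2.91 to -0.61, and all 13 paralog intervals lie between the dashed lines.

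The question of an offset was read as whether the signal of any paralog probe rose. The fitted differences of the 13 paralog probes were between -0.18 and 0.02, with 3 positive, 10 negative and a median of -0.05, beside a median of -0.01 over all retained probes. All 13 intervals lay within 1.5-fold in either direction, which was true of 77.2% of all retained probes. The highest upper end was a 1.37-fold rise, for the dim Agpat2 probe, and the highest upper end among the 4 Lpcat paralog probes was 1.17-fold. These are intervals of single probes without adjustment for their number. The upper end for the dim Agpat2 probe reached 1.51-fold with arrays scaled by the 75th percentile, 1.54-fold without the first wild-type array, 1.56-fold without the third, 1.61-fold with Y-linked signal as a term and 1.62-fold without the 2 arrays of lowest signal, so a rise of 1.5-fold was within its interval there. The genotypes did not overlap for 0 of the 13 paralog probes, where 4.79% of all retained probes did not (2.44% higher and 2.36% lower). Without Mrp4-null sample 1, Agpat1 A_51_P322612 parted upward and Agpat3 A_55_P2152592 downward, where 6.12% of all probes parted. Without Mrp4-null sample 2, Agpat4 A_51_P346165 and Lpcat1 A_55_P2131707 parted downward, where 10.9% of all probes did. No rise of a paralog was detectable at this precision, for RNA signal per probe. Levels of different probes cannot be added or compared on these arrays, so the total RNA of the family was not estimated, and the intervals set no limit on an offset in amount of RNA.

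The other genes of glycerophospholipid metabolism were followed through 7 lists with 83 genes, of which 76 had a retained probe. Limma called 0 of the 76 in either direction, the LPE test called 0, and 8 of the 124 retained probes had an unadjusted p under 0.05, where 6.46% of all retained probes had one. The genotypes did not overlap for 8 of the 124, where 4.79% of all retained probes did not. Over the array 0.652% of the tested named genes were called, so a count of 0 among 76 is near that background. The median log2 difference over these probes was -0.03. Among the 12 other acyltransferases, Mboat2, a lysophospholipid acyltransferase, had the largest difference, -0.51 by probe A_55_P2740743 (95% interval -0.93 to -0.08, adjusted p = 0.609 from limma), while its other probes gave -0.10 each. Gpat2, a further glycerol-3-phosphate acyltransferase, was at 7.16 against 6.86 by A_51_P497768, with a log2 difference of 0.30 (0.09 to 0.51, adjusted p = 0.403 from limma), and its arrays did not overlap. Tmem68, Taz, Gnpat, Mboat7 and Lpgat1 had differences between -0.05 and 0.04 by every retained probe.

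Among 15 genes that use phosphatidic acid, Plpp2, a lipid phosphate phosphatase, had log2 differences of -0.32 by A_55_P2129437 (95% interval -0.49 to -0.16, adjusted p = 0.168 from limma), without overlap of the arrays, and -0.43 by A_52_P607674, with overlap. Lpin3, a phosphatidate phosphatase, was the gene with the largest difference, 0.45 by A_55_P2083464 (0.10 to 0.80, adjusted p = 0.535 from limma), also without overlap. Among 14 phospholipases A and related lipases it was Pnpla6, a lysophospholipase, with 0.49 by A_52_P674803 (0.25 to 0.74, adjusted p = 0.150 from limma). Pnpla6 lies on chromosome 8, as do Agpat5 and Lpcat2. Also on chromosome 8, Gpat4, Gnpat, Acsl1, Ddhd2 and Pla2g15 of the pathway lists had log2 differences of -0.19 to 0.10. Limma called none of them. The arrays of Pnpla6 did not overlap between the genotypes.

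For the other lists the largest differences were smaller. Pla2g7, the secreted enzyme that breaks PAF down, was at 9.96 against 10.14, with a log2 difference of -0.18 (95% interval -0.34 to -0.01, adjusted p = 0.723 from limma) and no overlap by A_66_P114784, while its other probes overlapped. Neither probe of Ptafr, the PAF receptor gene, rose well above background in any sample. Selenoi of phosphatidylethanolamine synthesis had -0.27 (-0.85 to 0.30), Lpar6, an LPA receptor gene, had 0.26 (-0.04 to 0.56), and Acsl4, which activates arachidonic acid, had -0.23 (-0.55 to 0.10). None of these was called by limma.

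**Figure D4:**
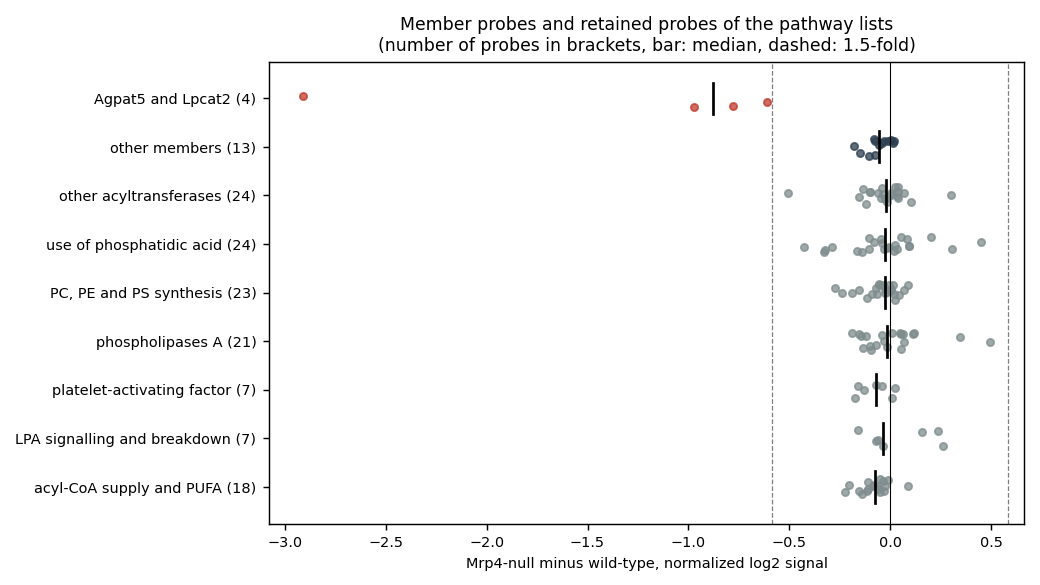
Difference in normalized log2 signal, arrays labelled Mrp4-null minus wild-type, of the 4 probes of Agpat5 and Lpcat2, the 13 other member probes and the 124 retained probes of the 7 pathway lists. Each point is a probe, the black bar is the median of a row, and the dashed lines are 1.5-fold. Outside the first row every probe lies between the dashed lines, from -0.51 to 0.49.

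The members differ in where they lie. Agpat5 and Lpcat2 are on chromosome 8, and the paralogs are on chromosomes 2, 6, 10, 13, 17 and 19 (GRCm38.p6, used here for names and gene order, because the array was designed on an older build). In the gene order of tested genes, the 10 neighbors on either side of each member were looked up, a step chosen after the values were known. Of the 20 neighbors of Agpat5, 5 were called changed. Myom2 was higher, with a log2 difference of 3.73, and Nek5, Nek3 and Ckap2 were lower, with log2 differences of -3.78, -1.62 and -1.50. The 2 probes of Kbtbd11 did not move alike, since one was called lower with -2.13 and the other was at -0.24 and not called. Of the 20 neighbors of Lpcat2, Slc6a2 was higher, with 3.13, and Crnde was lower, with -1.50 and -0.59 for its 2 probes. Of the 20 neighbors of each paralog, 0 were called. Of the tested named genes on chromosome 8, 4.18% were called, beside the 0.652% of the whole array.

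The genes whose array profile was most like that of 1 Agpat5 and 1 Lpcat2 probe, those of highest signal, were named by the root mean square difference of log2 levels over the 8 arrays, after centering each probe. For Agpat5 A_52_P572447 these were Rab6b (0.06), Cda (0.08), Htr1d (0.09), Hnmt (0.09) and Podnl1 (0.09), of which Podnl1 is on chromosome 8. For Lpcat2 A_55_P2809820 they were Timm44 (0.13), Nsun7 (0.13), Atp11a (0.15), Gpc6 (0.15) and Apobec2 (0.16), of which Timm44 and Atp11a are on chromosome 8. All 10 were lower on the arrays labelled Mrp4-null, with log2 differences of -1.13 to -0.47. The likeness was set mostly by the step between the genotypes, which the selection of Agpat5 and Lpcat2 had used, and is given as a description.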

How the data were processed

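Retinal RNA of 8 samples, 4 per genotype label, had been hybridized to one-color Agilent arrays. The authors deposited the signal intensity of each spot, which Agilent Feature Extraction 11.0.1.1 (per the labels) had background-subtracted and detrended within the array, with no normalization between arrays, and flags per spot, here read as other values of 0 or 1. A deposited table of intensity values was the mean processed signal per probe. Here, R 4.3.3 with limma 3.58.1 was used. Spots marked as outliers were left out, log2 signals were averaged per probe, and probes were retained when every array of a genotype that measured them had signal well above background (at least 3 such arrays, and 2 in the other genotype), 37085 of 56605. Retained probes were quantile normalized as in the methods and compared by lmFit and eBayes, with no term besides genotype. Accessions matched a gene for 32994 probes. No spot was saturated, and the number of arrays limits precision. The LPE test was written for this work, with 100 intensity bins and a spline of 10 degrees of freedom. Both tests were tested on simulated data. Genes were named by rule: all members, Abcc4, the listed gene with the largest difference per pathway list and the 5 genes of most similar profile per target, and other genes were named after their values were seen. Members and lists were chosen with earlier results of these data known. The alternatives were other normalizations, background correction, filters, tests, thresholds, the deposited table, the sample number as a block and each array left out. Leaving out the 2 arrays of lowest signal and the Y-linked term were added after seeing the data.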

Additional observations from a re-analysis of the deposited data

Results flagged for a closer look

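Single arrays far from the others of their genotype were looked for in 36 groups of 4 arrays, the 17 retained member probes and the 75th percentile of the signal in each genotype. A group stood out when the gap of an array to its nearest neighbor, divided by the range of the group, was above the 95% critical value of Dixon's test, which chance gives in about 1 of 20 groups, and 2 did. For Lpcat2 A_51_P169061 the second array labelled Mrp4-null was at 9.35 and the other 3 were between 9.69 and 9.71, a ratio of 0.937. That array also had the lowest 75th percentile of signal. Without it the log2 difference of this probe was -0.70. For Lpcat3 A_51_P145415 the first wild-type array was at 9.34 and the other 3 were between 8.88 and 8.96, a ratio of 0.832. Without it the log2 difference of this probe was 0.03.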

How the results depend on the processing

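In all 21 alternatives 0 paralog probes and 0 pathway genes were called. All 4 probes of Agpat5 and Lpcat2 were lower on the arrays labelled Mrp4-null in all 21, which their selection implies. Over all member probes, 9 of 339 refitted differences moved by the spread between arrays or more. Paralog differences lay between -0.41 and 0.19 over the alternatives, and values near 0 changed sign, such as Agpat2 A_51_P238563 (-0.26 to 0.19), Agpat1 A_51_P322612 (-0.03 to 0.11) and Lpcat4 (-0.21 to 0.03). As a description of probes that were selected on this contrast, and not as support for them, Agpat5 A_51_P361286 was called in all 21 alternatives, Lpcat2 A_55_P2809820 in 19, Lpcat2 A_51_P169061 in 11 and Agpat5 A_52_P572447 in 9. The count of member probes called, 4, was 2 without the 2 arrays of lowest signal, 1 with Y-linked signal as a term, and 2 to 3 with 1 array left out, with 2 calls without Mrp4-null replicate 3 or 4 or wild-type replicate 2, 3 or 4. The fits that leave out arrays have fewer samples, and with the Y-linked term the difference is by construction that between the arrays labelled Mrp4-null and wild-type array 1 alone, with larger standard errors (0.14 against 0.09 for Agpat5 A_52_P572447). With the sample number as a replicate block 1 member probe was called, A_51_P361286, and 71 probes of the whole array against 202 without the block. Whether the numbers pair the samples is not known. Deviations of same-numbered arrays correlated between -0.69 and 0.41, which is too few values to decide it. Over all probes 39 were called with the Y-linked term, 128 without the 2 arrays of lowest signal, and 117 to 188 with 1 array left out. The number of member probes whose genotypes did not overlap was 4 to 6, where 4.31% to 13.9% of all probes did not overlap. The added ones were paralog probes, at most 2 in a setting. With normexp this was Agpat3 A_55_P2152592, lower (4.68% of all probes), and without the 2 arrays of lowest signal Agpat4 A_51_P346165 and Lpcat1, both lower (13.9%). The dim Agpat2 probe had the widest interval among the paralogs.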
